A study of Mus musculus with 6 samples.

Results

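The cells described here were cancer cells of mouse pancreatic tumours that carried no UMI of the proliferation genes Mki67 and Top2a and little of the matrix transcripts Mgp and Dcn. A UMI (unique molecular identifier) is the tag that counts 1 captured RNA molecule. A cell was taken when it had at least 2000 UMIs, over 200 genes and under 10% mitochondrial UMIs, at least 1 UMI of Gm49504 and at least 3 of Krt8, Krt18, Bmp4 and Sox4 together. It further had at most 1 UMI of the leukocyte gene Ptprc, under 0.2% of its UMIs from C1qa, C1qb and C1qc, under 1% from S100a8 and S100a9, under 0.1% from Mgp and Dcn, under 0.1% from the interferon-induced genes Isg15, Ifit1, Ifit3 and Rsad2, and no UMI of Mki67 or Top2a. The members were thus chosen by the UMI counts of these 19 genes and of the whole cell. The conditions held for 6301 of the 42307 cells that passed the limits on UMIs, genes and mitochondrial share, and for 6301 of the 18495 cells that met the conditions on Gm49504, the epithelial genes and the immune genes. The genes of the rule could enter the fits, but they were taken out of the results and no test is given for them.

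The tumours grew in the pancreas of C57BL/6 mice injected with KPC cells, a mouse pancreatic cancer line with mutant Trp53, which had received by lentivirus either an empty construct (OE-Vector) or one for mouse Mlkl (OE-MLKL). Mice were 6 to 8 weeks old and tumours were taken 4 weeks after injection. Every tumour thus came from the same line, and whether each construct was carried by 1 clone or by a pool is not given in the sources used here. Droplet 3' single-cell RNA counts of 1 OE-Vector tumour and 3 OE-MLKL tumours were analysed, 1 library a tumour, and OE-Vector 2 and 3 were not analysed here. The 4 libraries held 150591289 to 169978362 UMIs, with 7653 to 12507 cells passing the limits. The non-cycling low Mgp-Dcn cells numbered 432 in OE-Vector 1, 2890 in OE-MLKL 1, 2488 in OE-MLKL 2 and 491 in OE-MLKL 3. Their median depth was 20913.5 UMIs in OE-Vector 1 and 17212 in OE-MLKL 3, against 10992.5 in OE-MLKL 1 and 10389 in OE-MLKL 2. A pair of libraries shared at most 3 member barcodes.

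Cells that leave the division cycle, or sit in its first gap phase, stop making the transcripts needed later in the cycle. Genes for DNA replication are switched on at the entry to S phase, largely through E2F factors, while mitotic genes are held down outside G2 and M by the DREAM complex, which binds a short element named the CHR (cell cycle genes homology region), often near CCAAT boxes. Mki67 and Top2a belong to the mitotic wave. Mlkl encodes the pore-forming executor of necroptosis, a lytic form of programmed cell death.

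The short stretches below stand upstream of the RefSeq starts of genes that separate the non-cycling from the proliferating cells. They are shown because they hold the letters of those elements. By the GENCODE annotation Ube2c starts at 164769898, which lies inside its printed stretch. All are RefSeq promoter sequence of build GRCm38.p6, 30 bases, written 5′ to 3′ on the strand of the gene. Capitals mark a match, on either strand, to TTTGAA for the CHR or to TTTNNCGC for E2F, with N any base, and in Mcm5 the capitals span 2 overlapping E2F matches. The first 4 belong to mitotic genes, where Cdk1 is the kinase that drives mitosis, Cdc20 and Ube2c act in the ubiquitin ligase that ends it, and Kif11 is a spindle motor.
Cdk1 (chr10:69352913-69352942, minus strand): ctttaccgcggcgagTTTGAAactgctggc
Cdc20 (chr4:118437344-118437373, minus strand): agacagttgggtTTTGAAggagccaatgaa
Ube2c (chr2:164769888-164769917, plus strand): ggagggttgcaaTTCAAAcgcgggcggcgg
Kif11 (chr19:37376351-37376380, plus strand): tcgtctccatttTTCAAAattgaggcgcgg
The next belong to S-phase genes, where Mcm5 and Mcm6 are subunits of the replicative helicase, Cdc6 loads it onto origins and Uhrf1 carries DNA methylation to new strands.
Mcm5 (chr8:75109349-75109378, plus strand): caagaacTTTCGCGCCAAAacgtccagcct
Mcm6 (chr1:128359734-128359763, minus strand): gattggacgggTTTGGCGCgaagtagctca
Cdc6 (chr11:98908002-98908031, plus strand): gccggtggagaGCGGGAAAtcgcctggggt
Uhrf1 (chr17:56303270-56303299, plus strand): gccccacttgcTTTCTCGCttcccgccaca

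Over windows from 250 bases before to 50 after the start, 1 window a gene, TTTGAA occurred in 10 of 15 genes of the G2/M list (66.7%), in 1 of 15 of the G1/S list (6.67%) and in 18.1% of 27025 promoter windows. TTTNNCGC showed the opposite split, with 8 of 15 G1/S windows (53.3%), 1 of 15 G2/M windows (6.67%) and 5.27% of all windows. CCAAT occurred in 13 of 15 G2/M windows (86.7%), in 10 of 15 G1/S windows (66.7%) and in 37.9% of all windows, again on either strand. Matches of different motifs may share bases, a match is a description of letters only, and 15 of the 18 genes of each list were matched to a window.

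The label of pancreatic cancer cell was checked on cells thinned to 2000 UMIs each, so that all classes had equal depth. As set by the rule, Gm49504, a long noncoding RNA on chromosome 16 (GRCm38, 3346350 to 3348370, plus strand), had a UMI in 31.5% to 49.1% of members across libraries, against at most 3.57% of neutrophil reference cells and at most 3.66% of macrophage reference cells. Bmp4, a secreted growth factor, was seen in 71.8% to 86.9% of members and Sox4, a transcription factor of progenitor states, in 76.4% to 81.3%. Of the markers the rule did not use, Sox9, a duct and progenitor factor, was seen in 27.8% to 35.4% of members and in at most 6.52% of either reference class. Epcam and Cdh1, the defining surface proteins of epithelium, were seen in at most 3.67% and 1.22% of members, which is no more than in the reference cells (at most 4.35% and 2.58%), and Krt19 in 1.35% to 3.26% against at most 2.86%. Outside the rule, the members thus carried Sox9, while Epcam and Cdh1 did not exceed the highest reference share. That share is the maximum over libraries, and the neutrophil reference of OE-MLKL 1 held only 46 cells. CPM are UMIs scaled to a common total per library. Krt7 stood at 19.9 to 31.3 CPM in members and at 14.2 to 27.5 CPM in barcodes of at most 100 UMIs. The 18 genes of the epithelial list summed to 0.805 to 1.09 of the level in those barcodes. For the 13 mesenchymal genes it was 1.15 to 1.37. Of the mesenchymal genes, Vim stood at 993 to 1609 CPM, beside 826 to 1280 CPM in those barcodes, and Cdh2 at 0.562 to 1.61 CPM.

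Transcripts of immune cells were low against free RNA, and those of fibroblasts were not. The rule had capped Ptprc, C1qa, C1qb, C1qc, S100a8 and S100a9, so low macrophage and neutrophil levels were in part set by it. Of fibroblast transcripts it had capped Mgp and Dcn alone. Of 11 macrophage markers all had UMIs, and their summed level was 848, 555, 629 and 1481 CPM in OE-Vector 1 and OE-MLKL 1 to 3, which is 0.068 to 0.108 of the level in barcodes of at most 100 UMIs, the free RNA of the same libraries. Summed neutrophil markers stood at 189 to 345 CPM (0.061 to 0.131 of free RNA), T and NK cell markers at 6.06 to 21.0 CPM, and acinar markers at 4.94 to 40.1 CPM. Fibroblast and pericyte markers summed to 284 to 671 CPM, 0.749 to 1.26 of the free RNA. Erythroid genes summed to 24.8 CPM in OE-Vector 1 and to at most 0.562 CPM in the other libraries.

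Mlkl itself did not set the labelled groups apart. OE-Vector 1 had 12.5 CPM, whereas the libraries labelled OE-MLKL had 7.74 (library 1), 9.96 (library 2) and 16 CPM (library 3). OE-Vector 1 lay inside the range of the others, with a log2 difference of -0.31 ± 0.39 (SE, edgeR adjusted p = 0.982). After thinning, 2.55% of members had a Mlkl UMI in OE-Vector 1, against 1.45%, 1.53% and 2.85%. Whether transcripts of the construct would be counted as Mlkl by 3' reads is not given in the sources used here, so the group of each library rests on its label.

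The share of non-cycling cells among low Mgp-Dcn cancer cells was compared between groups. Read on all UMIs it was 23% in OE-Vector 1 (432 of 1878, exact 95% binomial interval 21.1% to 25%), 59.1% in OE-MLKL 1, 46.2% in OE-MLKL 2 and 21.8% in OE-MLKL 3. OE-Vector 1 and OE-MLKL 3 were alike and low, and these were the 2 libraries whose cancer cells had more UMIs a cell. A cell with more UMIs has more chances to show 1 of Mki67 or Top2a, so each cell was thinned to 2000 UMIs. The share without a UMI of either gene then rose everywhere, to 72.8% in OE-Vector 1 and to 88.9%, 78.7% and 73.0% in OE-MLKL 1, 2 and 3. It includes cells that were proliferating on all UMIs and lost their Mki67 or Top2a UMIs by thinning. In OE-Vector 1 it was 1367 of 1878 cells, so the thinned share is not a share of members. The libraries labelled OE-MLKL averaged 80.2% ± 8.08 (SD, n = 3), 7.42 percentage points above OE-Vector 1 (exact two-sided permutation p = 0.5, where 1 library against 3 cannot go below 0.25). At 5000 UMIs a cell the difference was 7.93 points (p = 0.75 by the exact permutation test). OE-Vector 1 and OE-MLKL 3 differed by less than their counting intervals at 2000 UMIs (70.7% to 74.8% and 71.1% to 74.8%), whereas OE-MLKL 1 lay above every other library.

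**Figure D1:**
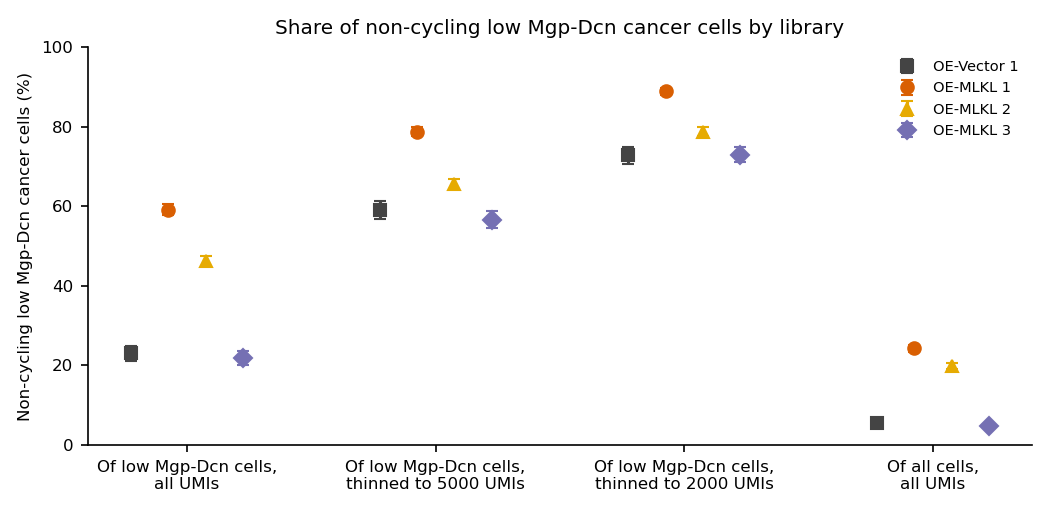
Share (%) of non-cycling low Mgp-Dcn cancer cells in each of the 4 libraries, among low Mgp-Dcn cancer cells on all UMIs, after thinning to 5000 or 2000 UMIs a cell, and among all cells. Points are libraries and bars exact 95% binomial intervals. After thinning, cells that lost their Mki67 or Top2a UMIs are counted as non-cycling too. OE-MLKL 1 is highest in each column, and OE-Vector 1 (72.8%) and OE-MLKL 3 (73.0%) coincide after thinning to 2000 UMIs.

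Of all cells passing the limits, the members made up 5.64% in OE-Vector 1, 24.3% in OE-MLKL 1, 19.9% in OE-MLKL 2 and 4.80% in OE-MLKL 3. The OE-MLKL mean was 16.3% ± 10.2 (SD, n = 3) and the difference was 10.7 points, with OE-Vector 1 inside the range of the OE-MLKL libraries (exact permutation p = 0.75). The boundary was crowded, as 386, 1110, 1177 and 521 cells that met all other conditions had exactly 1 UMI of Mki67 or Top2a and fell outside. Intervals on shares cover counting error only.

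Other cycle genes were low in the members too. In cells thinned to 2000 UMIs, the 18 genes of the G2/M list gave on average 0.148 UMIs a member of OE-Vector 1, while the OE-MLKL libraries gave 0.128, 0.192 and 0.141. Proliferating low Mgp-Dcn cells, which met the same conditions but had a Mki67 or Top2a UMI, gave 2.14, 1.22, 2.31 and 1.36. The G1/S list gave 0.472 to 0.591 UMIs a member against 0.979 to 1.66 in proliferating cells. Neither range overlapped between the classes, and the Mgp-Dcn-high non-cycling cells were close to the members on both lists (0.108 to 0.154 and 0.477 to 0.529). Silence was not complete, since on all UMIs 18.3% of members in OE-Vector 1, 7.16% in OE-MLKL 1, 9.08% in OE-MLKL 2 and 15.3% in OE-MLKL 3 had at least 3 UMIs of the G2/M list, and the higher shares were in the 2 libraries with deeper cancer cells. In the same order, only 25.2%, 49.9%, 45.1% and 30.5% of members had no UMI of the G2/M list. At least 3 UMIs of the G1/S list were held by 84.5%, 51.5%, 51.9% and 77.4% of members.

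**Figure D2:**
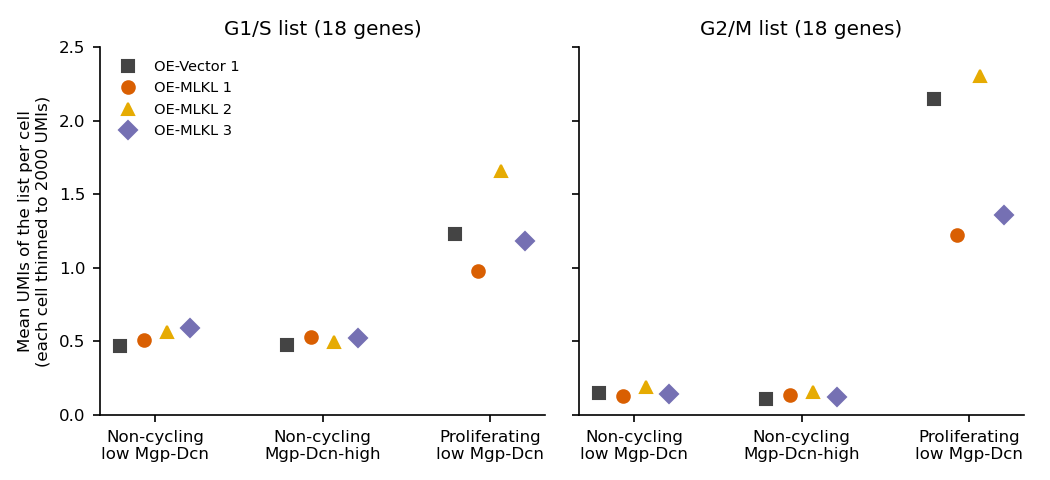
Mean UMIs per cell of the G1/S list (left) and the G2/M list (right), with every cell thinned to 2000 UMIs, in 3 classes of cancer cell. Each point is a library. Members stay at 0.128 to 0.192 G2/M UMIs in all 4 libraries, while the proliferating cells reach 1.22 to 2.31.

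Members and proliferating cells were then set against each other gene by gene, on UMIs summed per class and library, with the library as a term (n = 4 libraries). Because the split was made on the counts of these same cells, the values describe the classes and test nothing about how they arose. Of 14085 genes, 3980 passed an edgeR adjusted p of 0.05 (28.3%), 1830 higher in members (13.0%) and 2150 lower (15.3%), and the median log2 difference over all genes was 0.02. Scaling by library size alone turned this balance, with 2332 higher and 1861 lower. All 18 G2/M genes were lower in members (median -4.26) and all 18 G1/S genes were lower (median -1.59). Proliferating cells were also deeper, with median UMIs of 16097 to 30251.5 a cell. With every cell thinned to 2000 UMIs the count was 1493, and without OE-MLKL 2 it was 2519.

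The genes lowest in members, among called genes of 50 CPM or more in the higher class, are given next. Cenpf, a kinetochore protein, stood at 5.18, 2.63, 5.44 and 6.74 CPM in members of OE-Vector 1 and OE-MLKL 1 to 3, against 151, 89.2, 182 and 132 CPM in proliferating cells, a log2 difference of -4.94 ± 0.09. Ube2c gave -4.62 ± 0.07, Nusap1, a spindle protein, -4.59 ± 0.12, Tpx2, which activates the Aurora A kinase, -4.29 ± 0.10, and Birc5, the survivin subunit of the chromosomal passenger complex, -4.11 ± 0.06. Pclaf, a partner of the PCNA clamp, gave -4.60 ± 0.09. Cdk1, whose promoter stretch is printed above, was 17.5, 21.0, 18.6 and 11.2 CPM in members against 104, 85.4, 120 and 49.0 CPM in proliferating cells. It was thus still detected in the members of every library, at a log2 difference of -2.40 ± 0.09. Among S-phase genes the difference ran from -3.27 ± 0.10 for Rrm2, a subunit of ribonucleotide reductase, and -2.71 ± 0.09 for Mcm5, to -1.14 ± 0.06 for Pcna and -0.40 ± 0.05 for the histone mRNA binder Slbp.

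Genes that control exit from the cycle differed less. Of 13 tested genes for D cyclins, their kinases, CDK inhibitors and pocket proteins, 2 were higher in members and 5 lower, beside 13.0% and 15.3% of all genes, so the share of higher ones was near that of all genes. Cdkn1a, which encodes the inhibitor p21, was higher at 93.4, 75.2, 78.8 and 68.0 CPM against 59.5, 59.5, 52.4 and 55.6 CPM (0.44 ± 0.08). Members exceeded proliferating cells in every library. Ccnd3 was higher by 0.16 ± 0.04, whereas Ccnd1 (-0.45 ± 0.07), the INK4 inhibitor Cdkn2d (-0.90 ± 0.06) and the p107 gene Rbl1 (-1.67 ± 0.09) were lower, and Cdkn1b, encoding p27, did not pass (0.10 ± 0.05). Of 14 p53 targets, 10 were higher and none lower (median 0.26), among them Trp53inp1 (0.44 ± 0.05), Plk2 (0.38 ± 0.04), Bbc3 (0.33 ± 0.07) and Fas (0.31 ± 0.04). Cdkn1a is in that list too, and the KPC line carries mutant Trp53.

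Of 21 immediate early and heat shock genes, 17 were higher in the non-cycling cells and 1 was lower (median 0.28), beside 13.0% and 15.3% of all genes. The lower one was the chaperone gene Hsph1 (-0.22 ± 0.06). Fos stood at 1618, 2671, 2620 and 3911 CPM in members, and the log2 difference was 0.32 ± 0.06. Zfp36, which destabilises inflammatory mRNAs, gave 0.44 ± 0.05 and Egr1 0.28 ± 0.07. Of 14 genes of the integrated stress response, 4 were higher and 5 lower (median -0.19). The lower ones included Psat1 (-1.31 ± 0.06) and Phgdh (-0.59 ± 0.05), enzymes of serine synthesis, and the asparagine synthetase gene Asns (-0.91 ± 0.08).

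The genes most above the proliferating cells, among those expressed at 50 CPM or more, showed modest differences. Zhx3, a transcriptional repressor, was 30.3, 91.2, 77.7 and 58.9 CPM in members against 16.2, 61.3, 44.8 and 35.4 CPM (0.70 ± 0.06). Id3, an inhibitor of bHLH factors and a target of BMP signalling, was 290, 217, 234 and 229 CPM against 178, 142, 132 and 163 CPM (0.64 ± 0.08). Cadm1, a cell adhesion molecule, followed at 0.59 ± 0.05, then the unnamed transcript E330013P04Rik (0.58 ± 0.07), the growth factor gene Pdgfc (0.56 ± 0.05), Gdpd2 (0.56 ± 0.06), the carbonyl reductase gene Cbr1 (0.55 ± 0.05) and Thsd7a (0.53 ± 0.05). In each of the 4 libraries the members were the higher class for all of these, as the choice of genes required. Of 21 genes of BMP and TGF-beta signalling 6 were higher and 1 lower, beside 13.0% and 15.3% of all genes, with Bmp1 at 0.32 ± 0.05. Sox9 (0.28 ± 0.05), the transcription factor Onecut2 (0.43 ± 0.05) and the neutrophil-attracting chemokines Cxcl5 (0.36 ± 0.07) and Cxcl15 (0.47 ± 0.06) were higher as well, and Mlkl was lower (-0.35 ± 0.08).

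OE-MLKL was compared with OE-Vector within the members, on 8901654 to 35793924 summed UMIs per library. No gene of 14299 passed an adjusted p of 0.05 in edgeR's quasi-likelihood test (0.0%), while 839 had an unadjusted p under 0.05 (5.87%). limma-voom called 0 and DESeq2 called 72 (0.504%), 23 higher and 49 lower in OE-MLKL. The fit had 1 library on one side, which is assumed to vary as the OE-MLKL libraries do. Leaving out OE-MLKL 3 gave 620 calls, leaving out OE-MLKL 1 gave 110 and leaving out OE-MLKL 2 gave 81. OE-Vector 1 lay outside the range of the 3 OE-MLKL libraries for 52.6% of genes, below it for 34.6% and above it for 18%. Some library is the highest or lowest for every gene without any group effect, so these shares alone show no group difference. They were read on CPM, without the TMM factors by which edgeR scales library totals. Those were 1.16 in OE-MLKL 3 and 0.931 to 0.971 in the other libraries. In the edgeR fit the median log2 difference over all genes was 0.03.

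The genes with the lowest unadjusted p among those of 20 CPM or more are given as values, since none was called. Higher in all 3 OE-MLKL libraries was Retnlg, a secreted protein of neutrophils, at 4.15 CPM in OE-Vector 1 against 39.6, 27.0 and 39.5 CPM (log2 difference 2.98 ± 0.40, edgeR adjusted p = 0.227). In the free RNA of the same libraries Retnlg stood at 157, 371, 298 and 633 CPM, so its lowest level was in OE-Vector 1 there too, and the part of free RNA in the difference was not tested. Anxa8, an annexin, was at 6.12 CPM against 29.9, 32.5 and 28.9 CPM (2.21 ± 0.34, edgeR adjusted p = 0.28). That OE-Vector 1 stood apart from the OE-MLKL values was required by the choice of genes. Anxa8 in free RNA stood at 6.92, 26.9, 28.5 and 16.3 CPM, again lowest in OE-Vector 1, and the part of free RNA was not tested. Wee1, the kinase that restrains Cdk1 before mitosis, was at 5.81 CPM against 23.9, 23.8 and 27.0 CPM (1.99 ± 0.31, edgeR adjusted p = 0.337). The remaining genes of this direction were Gas7, Crybg1, 5930430L01Rik, Ablim1, Ace, S100g and Ereg, an EGF receptor ligand, with log2 differences of 1.15 to 3.06.

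Lower in all 3 OE-MLKL libraries was Edn1, encoding the vasoconstrictor endothelin 1, at 67.4 CPM in OE-Vector 1 against 5.56, 6.60 and 14.5 CPM (-3.11 ± 0.41, edgeR adjusted p = 0.227). Bst2, the interferon-induced virus tether, was at 303 CPM against 57.3, 67.1 and 114 CPM (-2.07 ± 0.34, edgeR adjusted p = 0.359). Tnc, the matrix glycoprotein tenascin C, was at 291 CPM against 63.9, 89.8 and 113 CPM (-1.84 ± 0.32, edgeR adjusted p = 0.381). In each case OE-MLKL 3 was nearest to OE-Vector 1. Free RNA was also highest in OE-Vector 1 for these genes, with Bst2 at 288, 71.2, 72.1 and 121 CPM, Edn1 at 27.6, 5.28, 4.57 and 8.54 CPM and Tnc at 195, 69.5, 95 and 93.3 CPM, and its part in the differences was not tested. Crybb1, Sept4, Tprg, Slfn2, Tcn2, Meox1 and Tceal9 completed the list with log2 differences of -2.58 to -1.57. The 20 genes of both directions were chosen by their p in these same counts, so refits of the same counts cannot support them further. With a smaller mean, the haemoglobin gene Hbb-bs had the lowest p of all (16.6 CPM against 0.112, 0.105 and 0.449 CPM, edgeR adjusted p = 0.106), beside the erythroid levels given above.

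**Figure D3:**
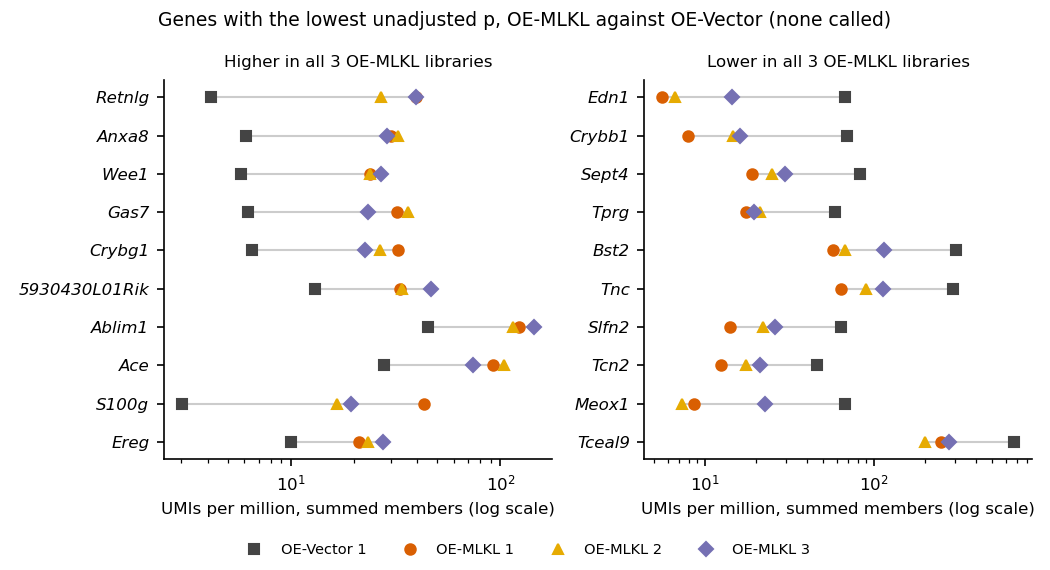
CPM (log axis) of the 10 genes of each direction with the lowest unadjusted p in the comparison of OE-MLKL with OE-Vector, none of them called. Each symbol is a library and each grey line spans the 4. OE-Vector 1 (squares) stands at one end of every line, as the choice of genes required, with Retnlg at 4.15 CPM and Edn1 at 67.4 CPM.

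By group of genes, no list had a called member (0.0% of all genes were called), and the medians are given beside the median of all genes, 0.03. Of 16 genes of antigen presentation and phagocytosis signals, 1 had a positive log2 difference, 11 lay below OE-Vector 1 in all OE-MLKL libraries (18% over all genes) and the median was -0.92. B2m, the light chain of class I molecules, was 1256 CPM in OE-Vector 1, against 546, 496 and 861 CPM in the OE-MLKL libraries. The class I heavy chain gene H2-K1 was 797, 301, 230 and 637 CPM, and the peptide transporter gene Tap1 28.0, 9.28, 12.2 and 26.1 CPM. Free RNA held more of each than the members did in every library and was again highest in OE-Vector 1, as for B2m at 2077, 970, 874 and 1178 CPM, H2-K1 at 1341, 653, 542 and 1104 CPM and Tap1 at 93.7, 34.8, 43.9 and 81.4 CPM, and its part in the differences was not tested. OE-MLKL 3 was the OE-MLKL library nearest to OE-Vector 1 for each, and the edgeR adjusted p values were 0.762, 0.847 and 0.878.

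Of 19 cytokines and chemokines, 11 were below OE-Vector 1 in all 3 libraries (18% over all genes, median of the list -0.86). Among them were Cxcl15 at 402, 91.0, 134 and 282 CPM and Lif, an IL-6 family cytokine, at 16.7, 5.31, 6.53 and 11.3 CPM. Both were highest in OE-Vector 1 in free RNA too, Cxcl15 at 177, 70.6, 79.1 and 107 CPM and Lif at 19.3, 8.52, 8.89 and 18.2 CPM. Of 21 immediate early and heat shock genes, 14 lay above OE-Vector 1 in all 3 libraries (34.6% over all genes) and the median was 0.61. No heat shock gene was among these 14, and Hsph1, a chaperone gene, was 119, 17.7, 20.1 and 87.1 CPM, below OE-Vector 1 in all 3 as was Hspa8. Klf4, a Krüppel-like factor, was 143, 282, 279 and 545 CPM, and Btg2, an antiproliferative gene, 444, 900, 919 and 1135 CPM, both highest in OE-MLKL 3. In free RNA Klf4 was 129, 218, 219 and 268 CPM and Btg2 464, 612, 580 and 744 CPM, also highest in OE-MLKL 3. Hsph1 in free RNA was 99.3, 24.7, 23.7 and 54.6 CPM. The edgeR adjusted p was 0.806 for Klf4 and 0.832 for Btg2. Of 20 matrix genes the median was -0.38 and 7 were below OE-Vector 1 in all 3 (again beside 18%), with Col4a1 at 427, 187, 196 and 356 CPM. Col4a1 in free RNA was 269, 155, 159 and 183 CPM. For the genes of these lists the part of free RNA in the differences was not tested. The cycle lists had medians of 0.07 for G2/M and 0.19 for G1/S, where the rule itself held mitotic genes low in every library. The 11 necroptosis genes had a median of -0.29.

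The libraries did not divide by group. Over 8621 genes of 10 CPM or more, OE-MLKL 1 and 2 were the closest pair, with a median absolute log2 difference of 0.16 and 65 genes over 2-fold apart. OE-MLKL 3 stood 0.36 to 0.39 from each of the others, OE-Vector 1 included, on CPM without TMM factors. Its TMM factor was 1.16, against 0.931 to 0.971 in the others, and the part of that offset in the distances was not tested. By genes over 2-fold apart, OE-MLKL 3 differed from OE-Vector 1 in 393, from OE-MLKL 1 in 805 and from OE-MLKL 2 in 411. OE-Vector 1 differed from OE-MLKL 1 in 530 and from OE-MLKL 2 in 339. Among the 100 genes of 50 CPM or more with the widest range, OE-Vector 1 was the highest library for 45 and OE-MLKL 3 for 35, and OE-MLKL 1 was the lowest for 65. Abca8a, a lipid transporter, had the widest range, at 210, 2.01, 8.67 and 81.2 CPM in OE-Vector 1 and OE-MLKL 1, 2 and 3. C3, the central complement component, was 679, 49.4, 186 and 387 CPM, and the interferon-induced chemokine gene Cxcl9 was 137, 9.69, 15.3 and 91.0 CPM. OE-Vector 1 and OE-MLKL 3 shared the high end for all 3 genes. Zbp1, the nucleic acid sensor that can start necroptosis, was 117, 13.5, 32.7 and 65.5 CPM, in the same order. In free RNA Abca8a was 127, 8.76, 14.9 and 36.6 CPM and C3 613, 113, 200 and 264 CPM. Cxcl9 was 234, 61.8, 117 and 240 CPM there, above the members in every library, and Zbp1 106, 25.1, 38.2 and 67.1 CPM. OE-Vector 1 and OE-MLKL 3 thus held the high end in free RNA too.

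In the members Nrcam, Trf, Cd53 and Lncenc1 also fell from OE-Vector 1 through OE-MLKL 3 and OE-MLKL 2 to OE-MLKL 1. Chil3, a chitinase-like protein of myeloid cells, was instead lowest in OE-Vector 1 (9.44, 68.6, 113 and 31.3 CPM). It stood at 116, 644, 821 and 447 CPM in free RNA. Cd53, a leukocyte tetraspanin, was 114 CPM in the members of OE-Vector 1 and 239 CPM in its free RNA. AY036118 overlaps Gm42418 in a region of chromosome 17 whose reads cannot be assigned with certainty. It was 883 CPM in OE-MLKL 2 and at most 249 CPM elsewhere, beside 11640 CPM in the free RNA of OE-MLKL 2. For the genes named here the part of free RNA in the range was not tested.

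**Figure D4:**
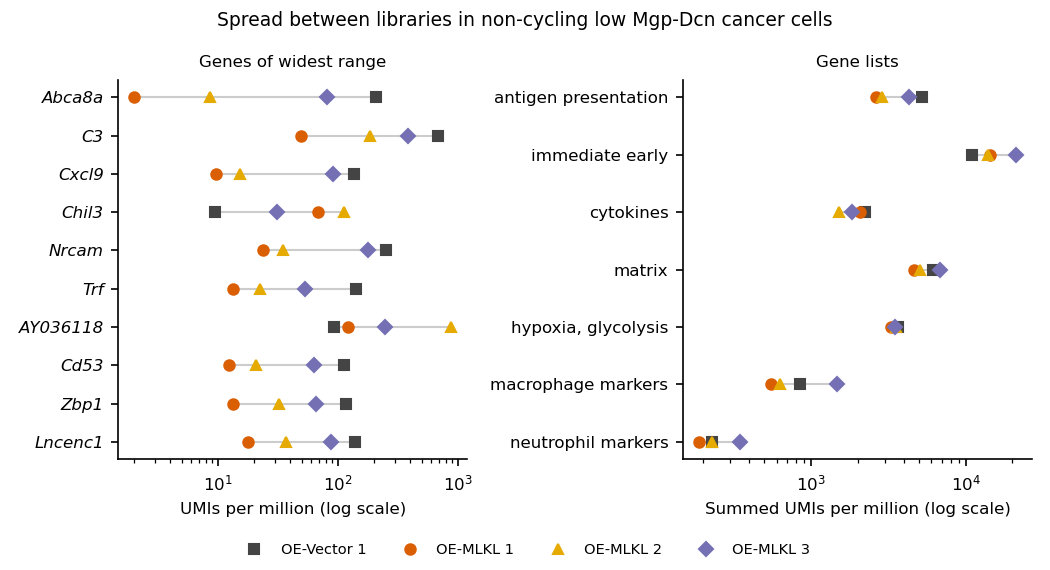
CPM (log axis) in the members of each library, for the 10 genes with the widest range (left) and for summed gene lists (right). Each symbol is a library. OE-Vector 1 and OE-MLKL 3 hold the 2 highest values for 8 of the 10 genes. The row of antigen presentation sums the whole list of antigen presentation and phagocytosis signals. It stands at 5210 and 4279 CPM in those libraries against 2645 and 2892 CPM in OE-MLKL 1 and 2.

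Among the most abundant transcripts, mitochondrial and ribosomal protein genes left out, the same libraries differed. Malat1, a nuclear long noncoding RNA, led at 41684 CPM in OE-MLKL 3, with 17440 CPM in OE-Vector 1, 14029 CPM in OE-MLKL 1 and 12879 CPM in OE-MLKL 2. In that ranking it was followed by the ferritin gene Fth1 (4261 to 7829 CPM), Tpt1 (5009 to 6447 CPM) and the elongation factor gene Eef1a1 (4300 to 5269 CPM). Enpp2, which encodes autotaxin, the secreted enzyme that makes lysophosphatidic acid, was among the top 15 at 4410, 1920, 2746 and 3983 CPM. Fos, an immediate early gene, was in the top 15 as well.

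Cells within a library also differed from each other. The Fano factor, the variance of a gene's UMIs over cells divided by its mean, is 1 for random sampling, and over 2670 genes with a mean of 0.1 UMI or more its median was 1.03 and its 95th percentile 1.41 in thinned members. Malat1 (21.1), Gm42418 (8.73) and Enpp2 (4.46) had the highest means over libraries, but Gm42418 stood at 24.3 in OE-MLKL 3 and at 2.21 to 6.18 in the others. Enpp2 ranged up to 34 UMIs a thinned cell and was at 0 in a part of the members, with a UMI in 97.7%, 72.2%, 87.5% and 91.0% of them. The metallothionein gene Mt1 (3.41), the interferon-induced GTPase gene Iigp1 (3.18) and Fth1 (3.09) followed with the mitochondrial genes mt-Atp6 and mt-Co1. Iigp1 was seen in 32.4%, 18.1%, 20.1% and 37.5% of members, although the rule had capped other interferon-induced genes. S100a9, a gene of the rule, stood at 3.47. Mdm2, the ubiquitin ligase that degrades p53, had 3.13, but only through OE-MLKL 3, where 1 cell held 31 of its 2000 thinned UMIs (Fano factor 9.27, against 1.04 to 1.13 in the other libraries).

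The members were next compared with the 2186 Mgp-Dcn-high non-cycling cells (65, 1390, 651 and 80 by library), which differed in the rule only by 0.1% or more of UMIs from Mgp, an inhibitor of calcification, and Dcn, the proteoglycan decorin. The boundary again cut a continuum, with 414 cells of OE-MLKL 1 between 0.1% and 0.15% and 665 between 0.05% and 0.1%. By this descriptive contrast 377 of 14085 genes passed the edgeR threshold (2.68%), 91 higher in members (0.646%) and 286 lower (2.03%), with a median of 0.01 over all genes. Without OE-MLKL 3 the count was 244, and with every cell thinned to 2000 UMIs it was 152.

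Members had less of the fibrillar matrix and fibroblast transcripts. Col1a2, a chain of type I collagen, was 3.01, 4.39, 4.28 and 12 CPM in members against 191, 60.2, 35.5 and 309 CPM in Mgp-Dcn-high cells (-4.15 ± 0.31). Lum, the proteoglycan lumican, gave -3.38 ± 0.27, Col1a1 -1.52 ± 0.19, Col3a1 -1.12 ± 0.23 and the small proteoglycan gene Bgn -0.71 ± 0.10. Of 21 matrix genes 10 were lower and 2 higher, Col6a2 and Tnc, beside 2.03% and 0.646% of all genes. Of 8 tested fibroblast and pericyte markers 7 were lower, among them the PDGF receptor genes Pdgfra (-0.61 ± 0.09) and Pdgfrb (-0.39 ± 0.06). These 8 markers, none at 0 in either class, summed to 284 to 671 CPM in members and to 441 to 1104 CPM in Mgp-Dcn-high cells, higher in the latter in every library, and the part of fibroblast RNA in the difference was not tested. The binding protein gene Igfbp4 (-1.11 ± 0.19), Gm5678 (-1.11 ± 0.12), Ecrg4 (-0.92 ± 0.11) and the liver plasma protein gene Ahsg (-0.90 ± 0.07) were lower too. Each was lower in all 4 libraries, as the choice of these genes required.

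Hypoxia and glycolysis genes were higher in the members, 10 of 18 with none lower (median 0.39), beside 0.646% of all genes higher and 2.03% lower. Bnip3, a mitophagy receptor induced by low oxygen, was 66.9, 89.3, 45.9 and 73.4 CPM against 62.8, 48.9, 18.7 and 21.1 CPM (0.98 ± 0.12). Egln3, an oxygen-sensing hydroxylase, was 82.3, 36.7, 32.5 and 91.3 CPM against 87.4, 13.7, 13.4 and 44.4 CPM (1.06 ± 0.15). For both genes the gap was in the OE-MLKL libraries and was small or absent in OE-Vector 1. Ankrd37 gave 1.30 ± 0.13, the glycolytic kinase gene Pgk1 0.69 ± 0.14 and Vegfa, the angiogenic factor, 0.36 ± 0.08. Among called genes of 50 CPM or more with 1 direction in every library, 2610528A11Rik was the furthest above the Mgp-Dcn-high cells, at 61.9, 83.3, 123 and 96.0 CPM against 39.9, 27.3, 47.0 and 24.1 CPM (1.48 ± 0.10). Ero1l, an oxidase of the endoplasmic reticulum (0.68 ± 0.11), Mif (0.60 ± 0.14), the haem oxygenase gene Hmox1 (0.56 ± 0.15), the ErbB ligand gene Nrg1 (0.56 ± 0.08), Alpl (0.55 ± 0.09) and Cdkn1a (0.54 ± 0.11) were higher in each library. Krt19 was higher in members by 1.32 ± 0.26, at 7.79 to 24.3 CPM against 4.23 to 9.34 CPM. In free RNA Krt19 stood at 17.9 CPM in OE-Vector 1 and at 24.9, 33.5 and 37.7 CPM in the OE-MLKL libraries. In the OE-MLKL libraries this exceeded the members, and the part of free RNA was not tested.

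The 93 interferon-high non-cycling cells formed the last neighbour, with 38 and 40 cells in OE-MLKL 1 and 2. OE-Vector 1 held 10 and OE-MLKL 3 held 5, too few for a sum under the minimum of 20 cells, so the contrast rested on 2 libraries. It is again a description, with 382 of 14085 genes past the threshold (2.71%), 82 higher in members (0.582%) and 300 lower (2.13%), and a median of 0.11 over all genes. Without OE-MLKL 1 it was 161, with 1 interferon-high sum that is assumed to vary like the other classes. DESeq2 gave 653 and limma-voom 1102. Scaling by library size alone gave 174 higher and 265 lower, and DESeq2's size factors 45 higher and 352 lower.

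The interferon-induced genes given next were among the called genes of largest difference, and no list of such genes was fixed or counted. The split was itself made on interferon-induced genes, so their direction describes that split. Cxcl10, a T cell attracting chemokine, was 14.2 and 11.9 CPM in members of OE-MLKL 1 and 2 against 434 and 780 CPM in the interferon-high cells (-5.57 ± 0.23). Ifit3b (-6.37 ± 0.34), Usp18 (-5.31 ± 0.33), Oasl1 (-5.12 ± 0.44) and the guanylate-binding protein genes Gbp5 (-4.90 ± 0.29) and Gbp6 (-4.25 ± 0.24) were lower as well. Of 16 genes of antigen presentation and phagocytosis signals, 11 were lower in members and none higher (median -0.94), beside 2.13% and 0.582% of all genes. Among them were the PD-L1 gene Cd274 at -3.62 ± 0.26, Tap1 at -2.28 ± 0.23 and B2m at -1.17 ± 0.10. The necroptosis genes Zbp1 (-3.05 ± 0.19) and Mlkl (-1.78 ± 0.33) were also lower in the members.

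Hypoxia and glycolysis genes were lower in the members than in the interferon-high cells, 10 of 18 with none higher, beside 2.13% and 0.582% of all genes. Their median was -0.76 and that of all genes 0.11. Ndrg1, a stress-induced gene, gave -0.996 ± 0.10, Pgk1 -1.39 ± 0.21 and Egln3 -1.64 ± 0.34. On this list the members thus stood above the Mgp-Dcn-high and below the interferon-high cells, the latter in OE-MLKL 1 and 2 alone. Higher in the members were Ccnd1 (0.85 ± 0.16), the tendon factor gene Scx (0.98 ± 0.20), the matrix gene Prelp (0.96 ± 0.22), Ssbp3 (0.95 ± 0.17), Dgcr6 (1.01 ± 0.27), Pnkd (0.91 ± 0.21), Mtcl1 (0.89 ± 0.20) and Gstm2 (0.89 ± 0.20). Gm15222 (1.06 ± 0.19) overlaps Bmp4, a gene of the rule, on the other strand. Macrophage markers had 1 gene of 11 higher in members (Fcer1g, 1.48 ± 0.37) and none lower.

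**Figure D5:**
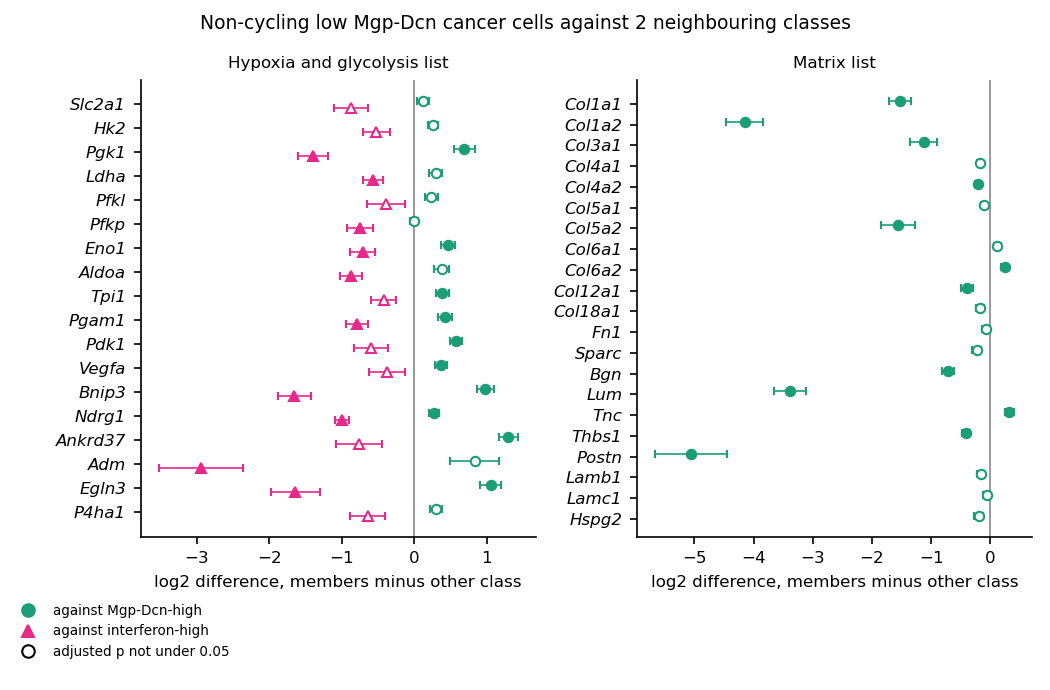
Log2 difference (points) with its SE (bars) of members minus Mgp-Dcn-high cells (circles) and minus interferon-high cells (triangles), for the hypoxia and glycolysis list (left) and, against Mgp-Dcn-high cells, the matrix list (right). Filled symbols passed an adjusted p of 0.05. Ankrd37 reaches 1.30 against Mgp-Dcn-high cells, and Adm and Egln3 lie below 0 against interferon-high cells.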

How the data were processed

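Cells of 4 tumours were measured by droplet 3' single-cell RNA sequencing. The deposited files hold raw UMI counts per gene and barcode, which the authors made with Cell Ranger against mm10. The submitters' notes name version 2.1.1, the file header 7.1.0 and the study's methods another version still, so the version behind the counts is uncertain. Whether intronic reads were counted is not given in the sources used here.

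From these counts, cells were selected by the rule given in the report, and free RNA was taken from barcodes of at most 100 UMIs. The members, gene lists and comparisons were chosen with earlier results of these data known. Counts were summed per library and class, with no sum under 20 cells, and tested with edgeR 4.0.16 (quasi-likelihood, TMM, filterByExpr, Benjamini-Hochberg adjusted p of 0.05, R 4.3.3). Where they passed the filter, the 19 genes of the rule took part in scaling and fitting. They were dropped before edgeR's p-values were adjusted, and for DESeq2 after its own adjustment. OE-MLKL was compared with OE-Vector without covariates, and classes in 1 fit with the library as a term. Errors of log2 differences are SE. P-values measure only the spread between these libraries, and 1 OE-Vector library gives no spread of its own. The fits were also run on simulated counts with known changes, and the outcome of those runs is not reported here. DESeq2 1.42.0 and limma-voom (limma 3.58.1) were alternatives. Shares were compared by an exact two-sided permutation test, with exact Clopper-Pearson 95% intervals, and thinning drew 2000 or 5000 UMIs a cell without replacement. No doublet caller was run. The immune limits of the rule removed mixed barcodes in part, and an alternative left out the cells above the 95th percentile of UMIs.

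Named genes were, for OE-MLKL against OE-Vector, the 10 of each direction with the lowest unadjusted p at a mean of 20 CPM or more with OE-Vector 1 outside the OE-MLKL range, since none was called. For each class comparison they were the 8 called genes of each direction with the largest difference at 50 CPM or more in the higher class and 1 direction in every library, with genes of the rule and mitochondrial and ribosomal protein genes left out. Also named were the 15 highest genes without mitochondrial and ribosomal protein genes, the 10 of widest range and the 10 of highest Fano factor, and genes of the lists. Hbb-bs was also named for its lowest p. Lists held 355 genes, of which 354 were matched. Promoter sequences are from RefSeq (GRCm38.p6).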

Additional observations from a re-analysis of the deposited data

How the results depend on the processing

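For OE-MLKL against OE-Vector the count of 0 genes became 72 with DESeq2, 44 with every gene kept, 1 with Ptprc at 0, 1 without the top 5% of cells by UMIs, and 81 to 620 when 1 OE-MLKL library was left out. The cause was not tested. Library size alone moved the median of all genes from 0.03 to 0.13. Thinning to 2000 UMIs, which leaves fewer genes and UMIs, gave 1493 genes against proliferating cells, 152 against Mgp-Dcn-high cells and 120 against interferon-high cells. Leaving out 1 library gave 2519 to 3639, 244 to 349 and 161 to 412 genes. Keeping every gene gave 716 against Mgp-Dcn-high cells. Against interferon-high cells DESeq2 gave 653, limma-voom 1102 and Gm49504 of at least 2 UMIs 195. The differences in shares kept their direction under each alternative. No named gene reversed. Medians of gene lists moved in 8 of 76 values against proliferating cells, 2 of 51 against Mgp-Dcn-high cells, 0 of 34 against interferon-high cells and 1 of 56 for OE-MLKL against OE-Vector. Of the called genes, 16 of 44, 2 of 31 and 5 of 27 in these 3 class comparisons kept their call under every alternative.

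The class comparisons carried the library as a replicate block. Without that block 292, 3 and 44 genes passed against proliferating, Mgp-Dcn-high and interferon-high cells. No paired analysis was possible because the libraries came from different mice, no source used here ties a replicate number to a litter, batch or day, and only 1 OE-Vector library was analysed.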
